A study of Cyprinus carpio with 9 samples.

Results

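The liver of common carp (Cyprinus carpio) fed duckweed, a small floating water plant, was compared with that of carp fed earthworm, an animal food, by messenger RNA sequencing of 3 libraries per diet. These 6 of the series' 9 libraries were taken by their labels, and the 3 libraries from the mixed diet were left out. A gene entered the comparison when 3 or more of the 6 libraries had it at 1 FPKM or above, which left 19377 of the 42997 genes listed. FPKM is a fragment count scaled by the length of the gene model and by the total of the library. The gene just inside this filter had a third-highest value of 1.00004 FPKM and the gene just outside it 0.9998 FPKM. Per the labels, all fish were adults that were fasted and anaesthetised with MS-222 before the liver was frozen, and each diet had 3 repetitions. The labels give neither the sex of the fish nor whether a library held 1 liver or several. The p-values here weigh the difference between the diets against the spread between libraries of a diet. Some of that spread may be technical. The series' design text speaks of duplicates, whereas the labels name 3 samples per diet.

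The liver receives absorbed nutrients from the gut and turns surplus amino acids into glucose, lipid and nitrogen waste. It also makes bile and secretes most plasma proteins, so that a small number of secretory transcripts can hold a large part of its messenger RNA. Earthworm is rich in protein, whereas duckweed supplies plant protein together with carbohydrate and fibre, and carp as omnivores eat both kinds of food. The files pair no gene ID with a name, and 0 of the 42997 IDs matched the RefSeq table of carp genes. For that reason each gene appears under its ID. Pathways, liver markers and markers of other cell types were not analysed here, so the tissue label was not checked against its markers.

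Libraries held between 9915585 and 11883466 reads, as recovered from the steps of the low FPKM values. On average, libraries of 1 diet were no more alike than libraries of different diets. Across the 19377 genes, the correlation of log2(scaled FPKM + 1) was 0.899 on average for the 9 pairs of a duckweed and an earthworm library and also 0.899 for the 6 pairs of libraries of the same diet. The closest pair of all was duckweed library 1 with earthworm library 3, at 0.943, and the most distant was duckweed library 1 with duckweed library 3, at 0.847. For earthworm library 3, r was 0.943 with duckweed library 1 and 0.939 with duckweed library 2, but 0.878 with earthworm library 1 and 0.893 with earthworm library 2. Several of the counts below are therefore also given without earthworm library 3. Duckweed library 3 was also distant from other libraries. Its r was 0.847 with duckweed library 1, 0.849 with earthworm library 3 and at most 0.923, with duckweed library 2. No p-value is given, because the points of these correlations are genes and not samples.

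**Figure D1:**
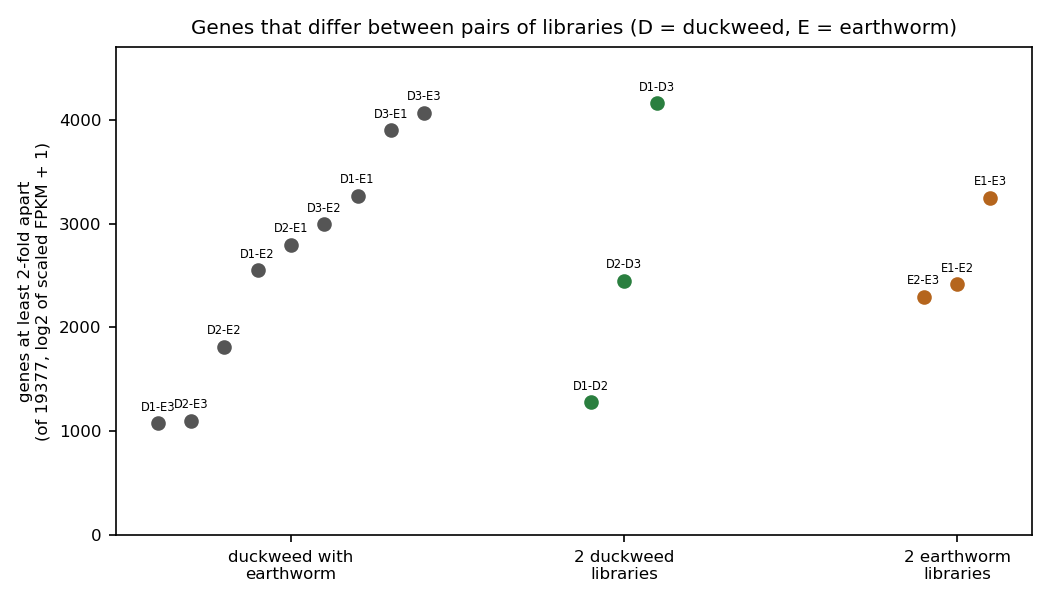
Number of genes (y axis, of 19377) at least 2-fold apart, on the scale of log2(scaled FPKM + 1), for each pair of libraries, with pairs of a duckweed (D) and an earthworm (E) library on the left and pairs of the same diet to the right. The pairs of different diets lie between 1076 and 4065 genes and those of the same diet between 1280 and 4158.

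The same picture held for large differences. Pairs of a duckweed and an earthworm library differed at least 2-fold in 1076 to 4065 genes, and pairs of the same diet in 1280 to 4158 genes, with medians of 2795 and 2432. The absolute difference between the diet means had a median over genes of 0.22 on the log2 scale. The SD of single libraries within a diet was 0.33 for duckweed and 0.36 for earthworm (medians over 19377 genes, n = 3 libraries each). A mean of 3 libraries varies less than a single library, so these measures are not on the same footing. In 19.4% of genes the difference between the diets was larger than the SD of either diet. The value of either without a diet effect was not worked out.

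Among the most abundant transcripts, large differences lay mostly on the lower side on duckweed. Of the 104 genes with a mean of 1000 FPKM or more over both diets, 22 had a log2 fold change of -1 or less, that is, were at least 2-fold lower on duckweed, and 0 had a log2 fold change of 1 or more. In FPKM as deposited these counts were 19 and 2. Over all 19377 genes tested, 244 had a log2 fold change of -1 or less and 376 had one of 1 or more. These counts over all genes belong to the scaled values of all 6 libraries, and those for the other settings are not given here. The median log2 fold change of all genes was 0.16 in FPKM as deposited, against 0.04 after scaling. With each library left out in turn the counts of the 104 genes lay between 18 and 25 and between 0 and 5, with the 5 found without duckweed library 1. The level of 1000 FPKM was a mean over both diets, so a gene could reach it through the diet where it was higher. Some of the 22 genes had every duckweed library under 1000 FPKM. The 22 genes were chosen by their fold change and are given as a description. They took 6.12%, 9.34% and 7.15% of the reads of duckweed libraries 1 to 3. They took 20.3%, 21.0% and 14.0% of the reads of earthworm libraries 1 to 3. The means were 7.54% ± 1.64 on duckweed and 18.4% ± 3.85 on earthworm (SD, n = 3 each). The other 82 genes of that level took 38.3% ± 0.38 on duckweed and 34.7% ± 2.97 on earthworm (SD, n = 3 each). In bulk tissue, fewer cells of a type and less RNA per cell cannot be told apart, and a share falls when the share of other genes rises.

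**Figure D2:**
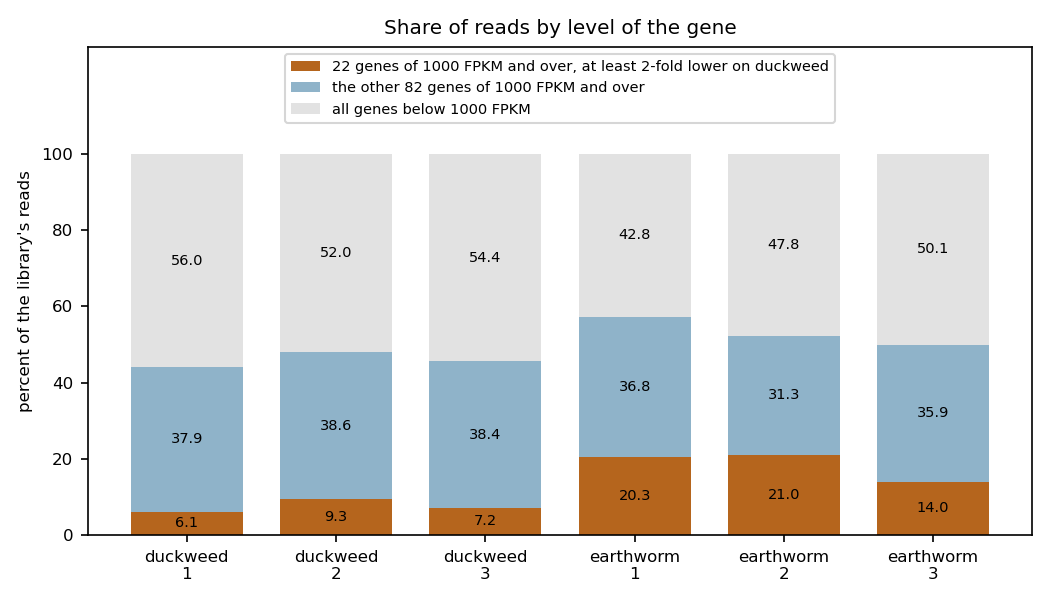
Share of each library's reads (y axis, percent) held by 22 genes of 1000 FPKM or more that were at least 2-fold lower on duckweed, by the other 82 genes of that level, and by all other genes. The 22 genes hold 6.12% to 9.34% in the 3 duckweed libraries and 14.0% to 21.0% in the 3 earthworm libraries.

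In 14 of the 22, the highest duckweed library was still under the lowest earthworm library, and the same held for 114 of all 244 tested genes with a log2 fold change of -1 or less. Genes chosen for a low fold change overlap less by that choice. The 22 log2 fold changes lay between -2.70 and -1.10, with a median of -1.57. Taking the midpoint between the diet means of each gene, duckweed libraries 1 and 2 lay below it in 22 of 22 genes and duckweed library 3 in 21. Earthworm libraries 1 and 2 lay below it in 0 and 1 of the 22 genes, but earthworm library 3 lay below it in 17. The level of each gene was also divided by its earthworm mean, and the median over the 22 genes was taken in each library. It was 0.185, 0.389 and 0.384 for duckweed libraries 1 to 3, against 1.36, 1.10 and 0.570 for earthworm libraries 1 to 3. By these medians earthworm library 3 lay between the duckweed libraries and the other earthworm libraries. The midpoints and earthworm means come from these same libraries, and the genes were chosen by the difference between the diets. Both placings are therefore partly set by that choice, and they were not tested.

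No gene of the 104 passed the test after adjustment, so these counts rest on unadjusted values. At an unadjusted p under 0.05 (limma), 18 of the 104 were lower on duckweed and 1 was higher, against 1.81% lower and 2.59% higher over all genes tested. In FPKM as deposited, without scaling between libraries, the counts were 19 and 5, against 201 lower and 680 higher of 19377 genes tested. With each library left out in turn, the counts of the 104 lay between 13 and 22 lower and between 0 and 2 higher. Over all genes tested, they then lay between 246 and 609 lower and between 299 and 767 higher. Without earthworm library 3, the 104 gave 22 and 0, against 609 lower and 759 higher of 17947 genes tested. That library was singled out for its closeness to the duckweed libraries, so leaving it out widens the difference partly by that choice. Without duckweed library 1, the 104 gave 15 and 2, against 386 lower and 767 higher of 18006 genes tested. Counts of genes whose libraries did not overlap were less steady. Of the 104, 15 were lower in all duckweed libraries and 5 were higher, against 3.83% and 5.18% over all genes tested, but these counts and the shares over all genes both moved with the setting. Without earthworm library 1 they were 15 lower and 21 higher, against 7.89% and 9.39% over all genes tested. Without duckweed library 2 they were 16 and 19, against 6.38% and 8.70%. Without earthworm library 3 they were 28 and 6, against 11.01% and 12.69%. Without duckweed library 1 they were 17 and 10, against 9.11% and 12.8%. In FPKM as deposited they were also 17 and 10, against 2.10% and 7.90%.

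**Figure D3:**
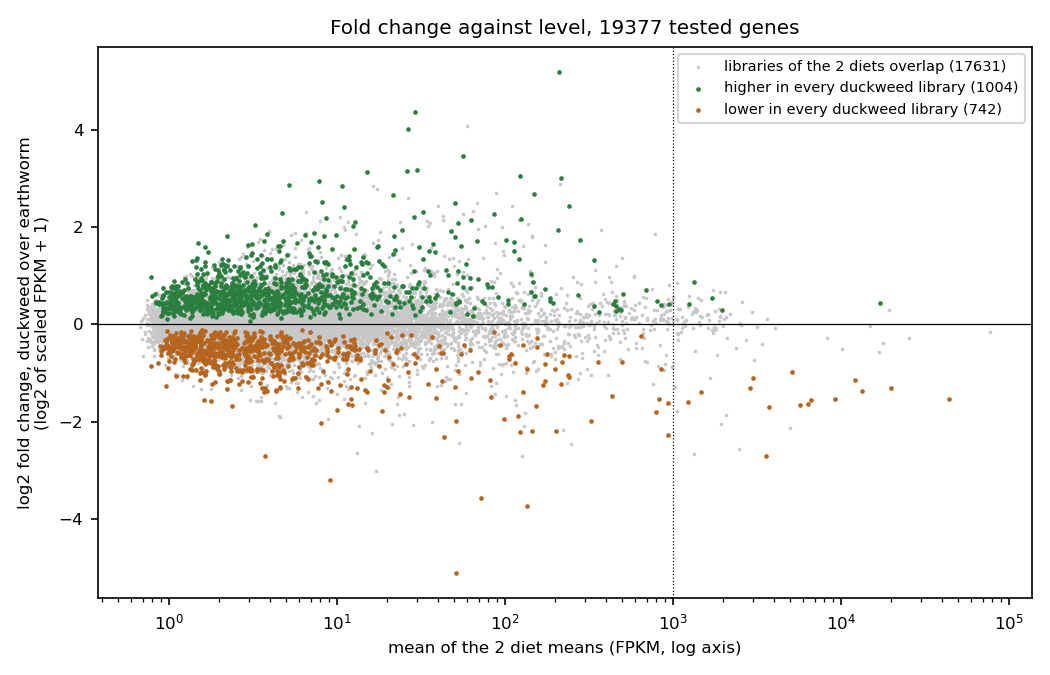
Log2 fold change of duckweed over earthworm (y axis, on log2 of scaled FPKM + 1) against the mean of the diet means (x axis, FPKM, log axis) for 19377 genes, with genes whose libraries do not overlap between the diets in colour. To the right of the dotted line at 1000 FPKM, 22 genes lie at -1 or below and 0 at 1 or above.

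The 50 genes with the highest mean of the diet means held 35.7%, 39.5% and 35.6% of the reads of duckweed libraries 1 to 3, against 49.3%, 44.8% and 42.3% of those of earthworm libraries 1 to 3. Every duckweed library lay below every earthworm library, and the counting error of each share was at most 0.0312 points (exact 95% binomial interval, counting error only). The difference was -8.58 percentage points (two-sided exact permutation p = 0.1, the smallest that 3 against 3 allows). It was made up of 28 genes whose share was lower on duckweed, by 12.7 points in all (-12.7), and 22 whose share was higher, by 4.16 points. The 5 genes that lost most accounted for -6.32 points. Most of the 22 genes described above, whose joint share differed by -10.9 points, are among these 50. Both differences in share thus rest largely on the same reads. The set of 10 genes gave a smaller difference, -2.87 points, and there the libraries of the diets overlapped (exact permutation p = 0.2).

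Gene CAFS_CommonC_G_016105 was the most abundant transcript of these livers. It was at 80657, 71348 and 77789 FPKM in duckweed libraries 1 to 3 and at 88748, 57522 and 86383 FPKM in earthworm libraries 1 to 3. The libraries overlapped, and earthworm library 2 was the lowest of the 6. Its log2 fold change was -0.16 (95% interval -0.86 to 0.54, limma).

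Gene CAFS_CommonC_G_068807, the second in level, was at 20599, 30267 and 23244 FPKM in duckweed libraries 1 to 3, against 66771, 68235 and 55748 FPKM in earthworm libraries 1 to 3. Gene CAFS_CommonC_G_068809, the fourth in level, was at 10585, 15332 and 11373 FPKM in the duckweed libraries, against 26099, 33321 and 22632 FPKM in the earthworm libraries. In both genes every duckweed library lay below every earthworm library, earthworm library 3 included. The means were 24703 ± 4996 FPKM on duckweed and 63585 ± 6826 FPKM on earthworm for the first gene, and 12430 ± 2544 FPKM on duckweed and 27351 ± 5453 FPKM on earthworm for the second (SD, n = 3 each). Their log2 fold changes were -1.54 (SE 0.32) and -1.30 (SE 0.33), with adjusted p = 0.667 and 0.933 (limma, Benjamini-Hochberg), and over the alternatives tried they stayed between -1.78 and -1.32 and between -1.58 and -1.10. Together they took 2.16% ± 0.44 of the reads on duckweed and 5.09% ± 0.76 on earthworm (SD, n = 3 each). The files do not say whether these IDs are copies of one another, and reads could be split between near-identical copies, of which the carp genome has many.

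Gene CAFS_CommonC_G_009449, the third in level, was at 24181, 29772 and 19852 FPKM in duckweed libraries 1 to 3 and at 28400, 19761 and 31765 FPKM in earthworm libraries 1 to 3, with overlapping libraries and a log2 fold change of -0.27 (95% interval -0.95 to 0.41, limma). Gene CAFS_CommonC_G_004942, the fifth, was at 19626, 23741 and 24296 FPKM in the duckweed libraries and at 15112, 15674 and 18308 FPKM in the earthworm libraries. As deposited, every duckweed library lay above every earthworm library, but the libraries overlapped after scaling. Its log2 fold change was 0.30 (95% interval -0.34 to 0.94, limma). Of the 5 transcripts, CAFS_CommonC_G_068807 and CAFS_CommonC_G_068809 had intervals below 0, and those of the other 3 included 0.

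**Figure D4:**
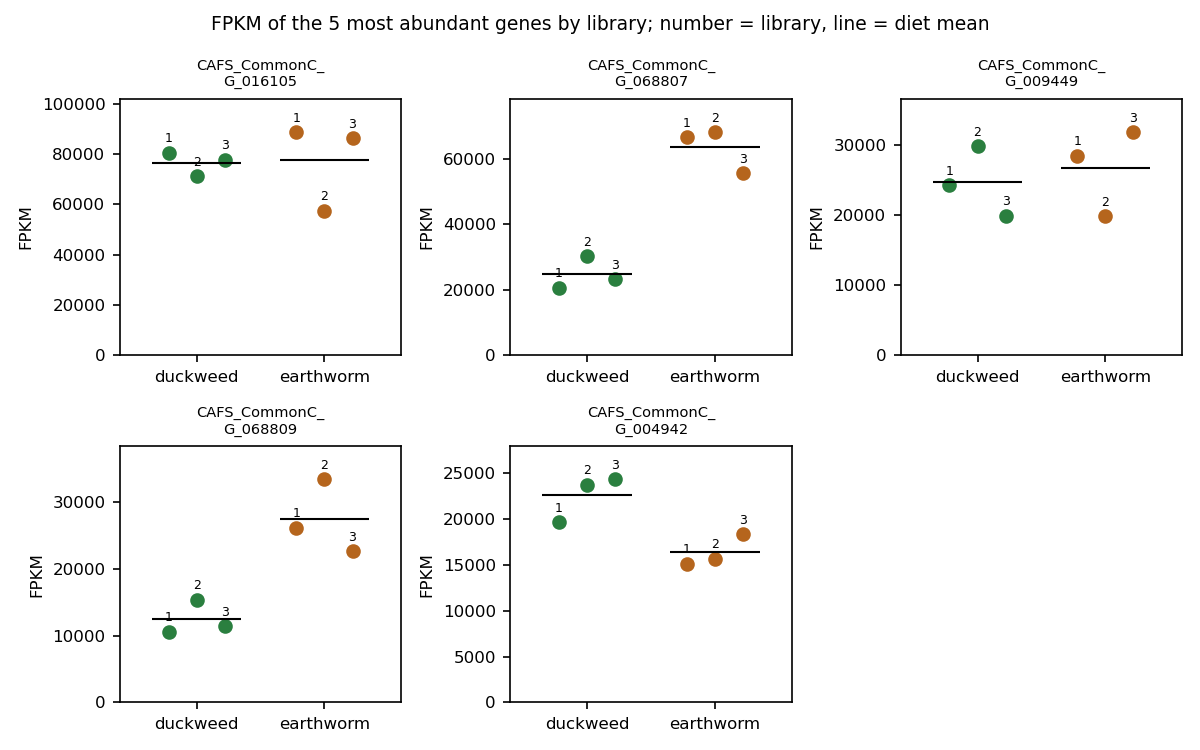
FPKM (y axis, from 0) of the 5 most abundant genes in each library, duckweed left of earthworm, with the library's number above each point and a line at the diet mean. In CAFS_CommonC_G_068807 and CAFS_CommonC_G_068809 the 3 duckweed points lie below the 3 earthworm points, and in CAFS_CommonC_G_016105 and CAFS_CommonC_G_009449 the points overlap.

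Across all genes the comparison asked which transcripts differ between a plant and an animal diet. No gene passed. limma called 0 of 19377 genes (0%) at an adjusted p under 0.05, and the lowest adjusted p was 0.404. At an unadjusted p under 0.05 there were 501 genes higher and 350 lower on duckweed, which is 2.59% and 1.81% of those tested. Together they numbered 851, fewer than the 969 expected at 5% of the genes tested if no gene differed. This depended on single libraries. Without duckweed library 1 there were 1153 of 18006 genes tested, and without earthworm library 3 there were 1368 of 17947, both above 969. With any other library left out there were 553 to 719. Run on the recovered reads, limma-voom called 0 genes as well, with 451 higher and 319 lower. In FPKM as deposited, which moved the median log2 fold change of all genes to 0.16 from 0.04 after scaling, the same counts were 680 and 201. Without a filter they were 795 and 815, of 40781 genes tested. The balance of higher and lower genes thus depended on the scaling and on the filter.

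Of the genes tested, 1004 (5.18%) had all duckweed libraries above all earthworm libraries and 742 (3.83%) had them below, against 1531 and 407 in FPKM as deposited. For a single gene, full separation of 3 against 3 libraries has a two-sided exact permutation p of 0.1, the smallest possible. Counts of this kind thus also arise where the diets do not differ, and they were not tested. Differences of 2-fold or more were few on the scale of log2(scaled FPKM + 1), where the added 1 shrinks the fold changes of low genes. A log2 fold change of 1 or more was found in 376 genes, of which 175 did not overlap between the diets, and one of -1 or less in 244 genes, of which 114 did not overlap. Genes detected at 1 FPKM on 1 diet and listed at 0 on the other were not found. In each direction, 0 genes were at 1 FPKM or more in all libraries of one diet and at 0 in all libraries of the other. With any value above 0 accepted, there were 83 genes seen in every duckweed library and no earthworm library, with at most 3.49 FPKM on average, and 83 the other way round, with at most 1.82 FPKM.

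The 2 genes of each direction with the smallest p, among those whose libraries did not overlap and whose mean was 1 FPKM or more, are given as values, since none passed the adjusted threshold. Gene CAFS_CommonC_G_047392 was at 115, 37.8 and 18.6 FPKM in duckweed libraries 1 to 3, against 0.92, 2.19 and 0.19 FPKM in earthworm libraries 1 to 3. Each duckweed library was over every earthworm library, though the duckweed libraries themselves ranged widely. Its log2 fold change was 4.37 (SE 0.59, adjusted p = 0.404, limma). Gene CAFS_CommonC_G_006940 was steadier, at 9.22, 8.07 and 6.84 FPKM in the duckweed libraries and 1.43, 1.14 and 2.14 FPKM in the earthworm libraries. Its log2 fold change was 1.70 (SE 0.25, adjusted p = 0.404, limma), and it rested on 43 to 61 reads per duckweed library and 7 to 14 reads per earthworm library.

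In the other direction, gene CAFS_CommonC_G_090851 was at 0.87, 0.78 and 0.42 FPKM in duckweed libraries 1 to 3, against 3.18, 4.59 and 4.39 FPKM in earthworm libraries 1 to 3. Gene CAFS_CommonC_G_074609 was at 0, 0.61 and 0.33 FPKM in the duckweed libraries, against 7.27, 9.71 and 4.63 FPKM in the earthworm libraries. In both genes the duckweed libraries lay below all earthworm libraries. Every duckweed library was under 1 FPKM, so both genes could pass the filter only with all 3 earthworm libraries at 1 FPKM or above. Their separation in FPKM as deposited was therefore set by the filter. The log2 fold changes of both genes were -1.69 (SE 0.22) and -2.70 (SE 0.36), each with adjusted p = 0.404 (limma). The second rested on 0, 8 and 4 reads in the duckweed libraries and on 79, 116 and 59 in the earthworm libraries, and a count of 0 allows up to 3 reads, or 0.255 CPM (reads scaled to the library total) in duckweed library 1. The pseudocount of 1 FPKM lowers the fold change of such low genes. Over the alternatives tried, the 4 genes kept their direction, with adjusted p of at least 0.182, though both genes lower on duckweed were not tested without some of the libraries, where they failed the filter.

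**Figure D5:**
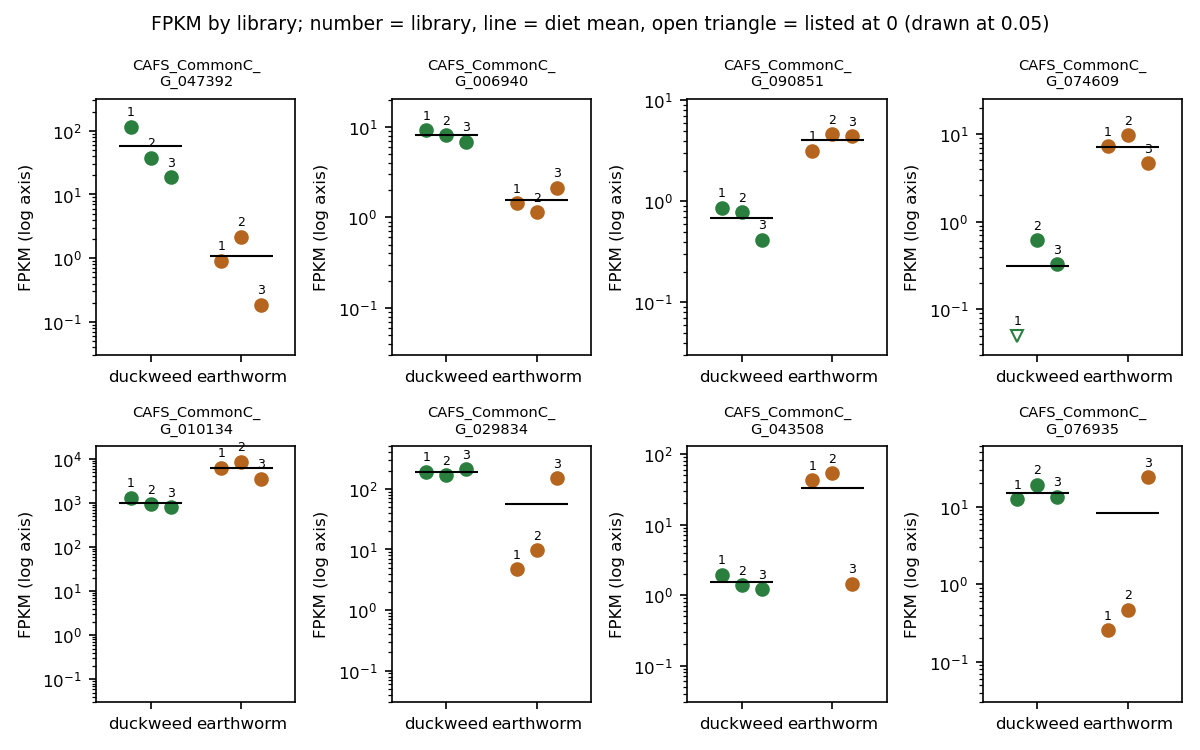
FPKM (y axis, log axis) in each library, duckweed left of earthworm, with the library's number above each point and a line at the diet mean; an open triangle marks a value listed at 0. In the upper row are the 4 genes named by p and in the lower row the 4 genes called without earthworm library 3, of which 3 have earthworm library 3 near the level of the duckweed libraries.

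Without earthworm library 3, limma called 4 genes, 2 higher and 2 lower on duckweed. Gene CAFS_CommonC_G_043508 was at 1.95, 1.39 and 1.22 FPKM in duckweed libraries 1 to 3, against 42.5 and 53.8 FPKM in earthworm libraries 1 and 2, and earthworm library 3 was at 1.45 FPKM. Gene CAFS_CommonC_G_029834 was at 193, 169 and 210 FPKM in the duckweed libraries, against 4.69 and 9.77 FPKM in earthworm libraries 1 and 2 and 151 FPKM in earthworm library 3. Gene CAFS_CommonC_G_076935 was at 12.6, 19.1 and 13.5 FPKM in the duckweed libraries, against 0.26 and 0.47 FPKM in earthworm libraries 1 and 2 and 24.1 FPKM in earthworm library 3. In these 3 genes earthworm library 3 was at or near the level of the duckweed libraries. In the remaining gene, CAFS_CommonC_G_010134, it was not. That gene was at 1302, 942 and 797 FPKM in the duckweed libraries, against 6303, 8618 and 3542 FPKM in the earthworm libraries, with a log2 fold change of -2.70 (SE 0.43, adjusted p = 0.417, limma) in all 6 libraries and of -3.20 (SE 0.31, adjusted p = 0.0482) without earthworm library 3. The other adjusted p without that library were 0.0119 for CAFS_CommonC_G_043508 and 0.0482 for both genes higher on duckweed. In all 6 libraries the adjusted p of these 3 genes was 0.998 (limma, Benjamini-Hochberg). In all 4 genes, CAFS_CommonC_G_010134 included, the library left out was the earthworm library nearest the duckweed level. All 4 calls thus depend on leaving it out. Over all alternatives the adjusted p of CAFS_CommonC_G_043508 lay between 0.0119 and 0.9999, and those of the other genes between 0.0482 and 0.9999. These 4 genes were named after their values were seen. Leaving out any other single library called 0 genes.

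Each library was then set against genes that separated the other 5, so that beyond the filter and the scaling the library itself had no part in the choice of genes. Where the other 5 libraries did not overlap between the diets and differed at least 2-fold in the mean, duckweed library 2 was nearer to the duckweed mean in 66.7% of 426 genes and duckweed library 3 in 54.6% of 438 genes, whereas duckweed library 1 was in 34.0% of 723 genes. Earthworm libraries 1 and 2 were nearer to the earthworm mean in 65.5% of 377 and 64.4% of 418 genes, whereas earthworm library 3 was in 26.2% of 846 genes. With no minimum difference, the shares nearer to the library's own diet were 35.6%, 55.6% and 51.3% for duckweed libraries 1 to 3 and 50%, 46.5% and 31.1% for earthworm libraries 1 to 3. Duckweed library 1 and earthworm library 3 had the lowest shares of their diets in both counts, but the other libraries lay between 46.5% and 55.6% in the second. An even split is not the yardstick here, because fewer libraries of the library's own diet than of the other entered each choice. The share without a diet effect was not worked out. Among the genes at least 2-fold apart, duckweed library 1 was nearer to its own diet in 26.7% of the 510 genes higher on duckweed and in 51.6% of the 213 genes lower on duckweed. The sets of genes overlap, so the 6 shares are not independent.

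The precision of these libraries limits what an absent call can mean. Among genes of 10 to 100 FPKM, the 95% interval of the log2 fold change lay within 1 of 0, so that a 2-fold change fell outside it, in 823 of 2878 genes (28.6%). This was so for 152 of 487 genes (31.2%) of 100 to 1000 FPKM and for 42 of 104 genes (40.4%) of 1000 FPKM or more. limma-voom gave 751, 158 and 42. For the other genes of these levels the interval reached 2-fold or beyond on at least 1 side. Below 10 FPKM the pseudocount narrows the interval, so those levels are left out of the counts here.

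The number of genes detected at 1 FPKM or more did not separate the diets. At that level there were 20036, 19451 and 16692 genes in duckweed libraries 1 to 3 and 15059, 18042 and 20051 in earthworm libraries 1 to 3 (difference of the means 1009, exact permutation p = 0.7). At 10 FPKM or more the duckweed libraries had 3835, 3525 and 3607 genes and the earthworm libraries 2881, 3193 and 3442, which did not overlap (exact permutation p = 0.1, the smallest possible). After scaling, the counts at 10 FPKM were 3236, 3256 and 3988 on duckweed and 3639, 3302 and 3013 on earthworm, and overlapped.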

How the data were processed

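Liver messenger RNA of common carp was sequenced, with 3 libraries on duckweed and 3 on earthworm used here. Groups and replicate numbers come from the sample titles. Members and tests were chosen with earlier results of these data known. Per the file headers, the authors deposited FPKM per gene ID; the submitters' processing notes name HTSeq 0.6.0. Not given in the sources used here were the aligner, build, annotation and strand setting, so overlapping, antisense and near-identical genes are uncertain.

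FPKM steps in whole multiples of 1 read. Library totals and gene lengths (60 to 40000 bases searched, median 2009) were recovered from these steps within rounding error, and tested on simulated data. Totals were 9915585 to 11883466 reads, of which recovered reads made up 99.7% to 99.8%. Floors and intervals describe counting error alone. Any 2 libraries of a diet differed by more than counting error (lowest chi-square over its degrees of freedom 38.9). This cannot tell whether 2 libraries came from the same fish, and pairs of different diets were not checked.

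FPKM was divided by trimmed-mean-of-M-values factors computed on those reads (30% of ratios and 5% of levels trimmed; factors 0.752 to 1.21) and tested as log2(scaled FPKM + 1) with limma 3.58.1 in R 4.3.3 (trend and robust options, two-sided, Benjamini-Hochberg over 19377 genes, threshold 0.05). Exact permutation tests used SciPy 1.17.1. Named genes were the 5 with the highest mean of the diet means, and per direction the 2 with the smallest p among genes past the threshold or, where fewer than 2 passed, among those with non-overlapping libraries and a mean of 1 FPKM or more. Alternatives were other scaling, filters, pseudocount and models, the replicate number as a block, and each library left out.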

Additional observations from a re-analysis of the deposited data

How the results depend on the processing

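The count of 0 calls held under every alternative except without earthworm library 3, which gave 4; over the libraries left out, calls lay between 0 and 4 in all and between 0 and 2 in each direction. Genes at an unadjusted p under 0.05 lay between 553 and 1368 (299 to 767 higher, 246 to 609 lower) over the libraries left out: 1368 (759 higher, 609 lower) without earthworm library 3, 553 (299 higher) without duckweed library 2, and 767 higher without duckweed library 1. They numbered 1610 of 40781 genes tested without a filter (795 higher, 815 lower). With 1 FPKM required in all 6 libraries, 311 of 12153 genes tested were higher. In FPKM as deposited, 201 of 19377 were lower. Genes higher in every duckweed library numbered 1531 in FPKM as deposited, 1682 without a filter and 1569 to 2296 with a library left out; those lower numbered 407, 1658 and 1151 to 1976. Fewer libraries overlap less by construction.

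Intervals within 1 of 0 were found for 10357 genes of all levels. Of these, 8751 had a mean of 1 to 10 FPKM, where the pseudocount narrows the interval. The count was 30136 of 40781 genes tested without a filter and 6553 of 12153 with 1 FPKM in all 6 libraries. It was 3890 with a pseudocount of 0.1. With limma-voom it was 3773, and with a library left out it lay between 5372 and 9291. The median log2 fold change, 0.04, was 0.16 in FPKM as deposited and 0.0037 without a filter. The median SD within a diet lay between 0.194 and 0.353 on duckweed and between 0.266 and 0.357 on earthworm with a library left out, and was 0.480 on earthworm with a pseudocount of 0.1. The difference in genes at 1 FPKM or more lay between -320.2 and 2176, negative without earthworm library 1. Genes at 1 FPKM or more on 1 diet and 0 on the other numbered 0 to 3 in each direction with a library left out; with 0.5 FPKM, 1 was found on earthworm, and 83 each way with any value. The log2 fold change of CAFS_CommonC_G_016105 reversed to 0.0072 in FPKM as deposited and, with a library left out, lay between -0.39 and 0.12, positive without earthworm library 1. The share in the 50 genes lay between -10.4 and -6.78 points with a library left out. A change of filter also changes the number of genes tested, and with it such counts. For these moves, other than those set by construction or by the number of genes tested, the cause was not tested.

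Replicate numbers are shared by the diets. Across genes, the deviations of same-numbered libraries from their diet means had correlations of -0.21, -0.10 and -0.42. With deviations centred on means of 3 libraries, these values cannot decide whether the numbers pair the libraries. With the replicate number as a block, 0 genes were called, with 703 at an unadjusted p under 0.05. Intervals within 1 of 0 then numbered 7683, genes of all levels included.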

Other observations

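Gene length was set beside the direction of the difference. Of 3057 tested genes with a recovered length of 4000 bases or more, 74 (2.42%) were lower in every duckweed library and 181 (5.92%) were higher, against 3.83% and 5.18% of all genes tested. Of 3458 genes under 1000 bases, 143 (4.14%) were lower and 171 (4.95%) were higher. In FPKM as deposited the long genes gave 36 lower (1.18%) and 277 higher (9.06%), and the short ones 83 (2.40%) and 257 (7.43%), against 2.10% and 7.90% of all genes tested. The difference between the length classes was not tested.

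Duckweed library 2 lay between the other duckweed libraries in 54.7% of genes, whereas duckweed libraries 1 and 3 lay between their counterparts in 27.4% and 17.9%. On earthworm the shares were 28.0%, 39.3% and 32.7% for libraries 1 to 3. Of 26 genes at 5 scaled FPKM or more in duckweed library 3 and at least 10 times as high as in duckweed library 1 and each earthworm library, duckweed library 2 held a median of 0.255 of the level. Earthworm library 2 held a median of 0.295 of the level of 30 such genes of earthworm library 1. For earthworm library 1 against 19 such genes of earthworm library 2 the median was 0.377. In the other combinations there were 0 to 12 such genes, with a median of at most 0.0738. These genes were chosen without regard to their level in the library described, and the source of the shared levels was not tested.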
